A study of Sus scrofa with 27 samples.

Results

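Imprinted growth genes were followed in mural granulosa cells (GCs), the cells that line the inside of the ovarian follicle wall, of sows fed fully or restrictedly in lactation. The group consists of 10 genes, *MEST*, *PEG3*, *PEG10*, *DLK1*, *PLAGL1*, *GRB10*, *NNAT*, *SNRPN*, *NDN* and *SGCE*, and its members were the rows of the count files whose pig Ensembl identifier carries one of these symbols. Of 35670 identifiers, 9 belonged to the group, since no identifier was matched to *NNAT*, which encodes the membrane protein neuronatin. There were 13 full-fed (FF) sows on 6.5 kg of feed per day and 14 feed-restricted (RES) sows on 3.25 kg per day. Both diets covered the last 2 weeks of a first lactation, and after weaning both groups were fed alike until ovaries were taken on day 2. All sows were wild-type crosses of Large White and Norwegian Landrace. The RES sows were those of a larger herd that lost most body weight and the FF sows those that lost least, so the groups differ by that choice as well as by diet. From each sow, GCs of the largest healthy follicle of 1 ovary were cut out by laser capture microdissection, and 1 RNA-seq library was made. The paper reports that this follicle was smaller on average in RES than in FF sows, so the diets also compare follicles of unlike size. The part of follicle size in the values was not tested.

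A gene is imprinted when it is read mainly from the copy inherited from one parent, according to DNA methylation laid down in the egg or the sperm. Many imprinted genes act on growth and on how nutrients are shared between mother and young, and paternally expressed members more often favour growth. The counts do not separate the parental copies, so they give the level of each gene and not its imprint. Each library is also a bulk sample, in which fewer cells of a type and less RNA per cell cannot be told apart.

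The libraries held 12299220 to 16021200 counted fragments in FF sows (median 13490513) and 12942198 to 18120922 in RES sows (median 15232600). FF sow 10 stood apart from all other libraries on the second principal component of the 11384 genes tested, with a score of 66.1 against -37.2 for the next farthest library. It was the lowest FF library for *PEG10*, *SGCE* and *NDN* and the highest for *MEST*, *PLAGL1*, *GRB10* and *PEG3*. A table of read quality from the study divides the libraries at a gap into an upper group of 7 FF and 7 RES sows and a lower group of 6 FF and 7 RES sows. In the study's quality tables, matched by sow number, FF sow 10 has the lowest RNA integrity number (RIN) of the 27 libraries, the lowest ratio of 28S to 18S rRNA and the largest share of reads mapped to several places, and the part of RNA quality in its values was not tested. Those tables also list an FF sow 9 in the upper group, whereas the labels give sow 9 as the sow left out for low RIN, so it is in doubt which of the adjacent rows belongs to FF sow 10. The cause of the gap in read quality is not given in the sources used here, and the values within each group stand beside the results that differ between them.

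Detection differed widely among the members. *DLK1*, a membrane protein related to Notch ligands, had 0 counts in every one of the 27 libraries, together 393592862 fragments. A count of 0 allows up to 3 counts, or 0.00762 CPM (the count scaled to the library total) over all libraries and 0.166 to 0.244 CPM in a single library, for counting error only. *PEG3*, a zinc finger protein gene, had 61 counts in all. Its FF libraries held 1 to 5 counts each (median 2), and its RES libraries 0 to 6 (median 2), with 2 RES libraries at 0. Fitted with no filter on low counts, *PEG3* had a log2 difference of -0.37 with an SE of 0.40 (edgeR, adjusted p = 0.598). The other 7 members passed the filter of a mean count of at least 5.

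Their levels spanned about 2 orders of magnitude when divided by the median length of the RefSeq transcripts of each gene. On that scale of normalized counts per kb, *SGCE* stood at 537 ± 129.9 in FF sows (SD, n = 13). *NDN* had 395 ± 94.1, *PEG10* 371 ± 331, *SNRPN* 193 ± 21.9, *MEST* 120.3 ± 53.3, *GRB10* 13.6 ± 2.12 and *PLAGL1* 4.24 ± 1.22. *NDN* and *PEG10* did not differ beyond their spread, and *SGCE* and *PEG10* overlapped as well. In RES sows the order was *SGCE* (462 ± 113), *NDN* (378 ± 111), *PEG10* (197 ± 87.8), *SNRPN* (174 ± 19.4), *MEST* (147 ± 45.05), *GRB10* (14.1 ± 2.45) and *PLAGL1* (3.65 ± 0.622), each with n = 14. Annotated transcripts range from 1228 to 13839 bases for *MEST* and from 1249 to 14120 bases for *SNRPN*, so their places depend on the length used.

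**Figure D1:**
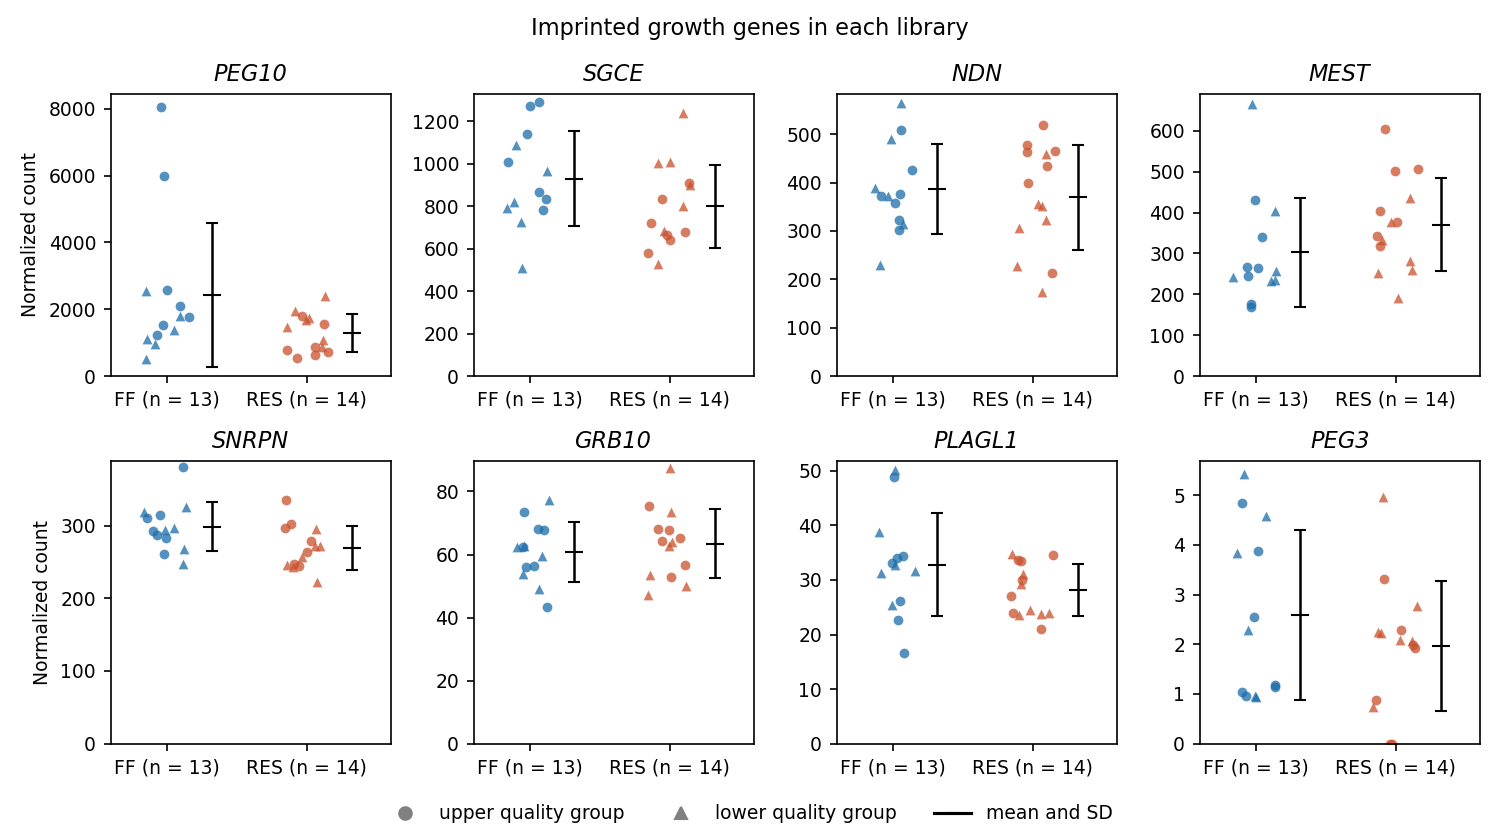
Normalized counts (counts divided by the size factor of the library) of the 8 members with any counts, 1 point per sow, with the mean and SD of 13 FF and 14 RES sows at the right of each diet; circles and triangles mark the upper and lower quality groups. *PEG10* has 2 FF libraries, at 5992 and 8065, far above all others, while the diets overlap for every gene shown.

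*PEG10*, a paternally expressed gene derived from a retrotransposon and needed for the placenta in mice, and *SGCE*, the gene of epsilon-sarcoglycan, lie head to head on chromosome 9. In the pig genome build Sscrofa11.1, RefSeq places *SGCE* at chr9:74402714-74473904 on the minus strand and *PEG10* at chr9:74474121-74486983 on the plus strand. Between the starts lie 216 bases, chr9:74473905-74474120, outside the annotated exons of both genes. They are shown because both members would be read outward from them, on the plus strand with each CG pair, the base pair that DNA methylation marks, in capitals:
PEG10-SGCE interval: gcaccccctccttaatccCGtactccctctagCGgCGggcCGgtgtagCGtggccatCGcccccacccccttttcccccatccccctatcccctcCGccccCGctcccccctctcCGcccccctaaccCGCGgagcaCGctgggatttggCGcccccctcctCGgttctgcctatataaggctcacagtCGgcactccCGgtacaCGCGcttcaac
The interval holds 18 CG pairs at a G and C content of 68.5%, which is 0.873 of the number its base composition would give. Among windows of the same length before 20639 protein-coding genes, the median is 10.0 CG pairs, and 29.3% of windows hold 18 or more. The motif GGGCGG, searched on both strands, occurs 2 times on the minus strand, and 43.1% of the windows hold it on either strand. The motif GCCATNTT, searched in the same way, has no match in the interval, and 3.09% of windows hold it. Methylation was not measured in these libraries.

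The first question was which members differed between RES and FF sows. None of the 7 tested members was called (adjusted p under 0.05 in edgeR's quasi-likelihood test, Benjamini-Hochberg over 11384 genes), where 14.1% of all tested genes were called. At an unadjusted p under 0.05 there were 2 of 7 (*PEG10* and *SNRPN*), beside 30.0% of all tested genes. DESeq2 called 1 of the 7, *PEG10*, beside 17.0% of all tested genes, and limma's voom with sample weights called the same gene, beside 28.0%. The median log2 fold change of the 7 was -0.14, with 5 below 0 and 2 above, beside a median of -0.02 over all tested genes.

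*PEG10* had the largest difference of the members. Its normalized count in FF sows ranged from 501 through a median of 1771 to 8065, and in RES sows from 531 through 1281 to 2384. The means were 2428 ± 2167 (SD, n = 13) and 1291 ± 575 (n = 14), and 11 RES sows fell short of the FF median. The diets overlapped, with 4 FF sows above the highest RES sow. On the log2 scale *PEG10* stood at -0.90 ± 0.32 (SE) in RES against FF, and its adjusted p in edgeR was 0.057. FF sows 6 and 14 carried much of it: without sow 6 the value was -0.59 (adjusted p = 0.173), and without sow 14 it was -0.71. It was called without FF sow 10 (adjusted p = 0.024), and likewise when FF sow 4, 5 or 13 or RES sow 2, 7 or 14 was left out.

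*SGCE* had a smaller difference in the same direction, which did not pass the test. Epsilon-sarcoglycan is a membrane protein of the complex that ties the cytoskeleton to the matrix around the cell. Its FF libraries ran from 509 through a median of 865 to 1291 normalized counts, and its RES libraries from 528 through 760 to 1241, so the diets overlapped almost fully. This gave *SGCE* a log2 difference of -0.21, with an SE of 0.13 and an adjusted p of 0.265. Of the other members of the sarcoglycan and dystroglycan complex, 0 of 10 tested were called, beside 14.1% of all tested genes, and 2 had an unadjusted p under 0.05, beside 30.0%. The most abundant was *UTRN* (utrophin), with 5415 ± 1268 normalized counts in FF and 5132 ± 903 in RES sows, followed by *DAG1* (dystroglycan), with 2411 ± 449 and 2734 ± 657. *SSPN* (sarcospan) had a log2 fold change of -0.36 ± 0.14 (adjusted p = 0.086), and *SGCB*, the beta-sarcoglycan gene, one of 0.03 ± 0.06 (adjusted p = 0.793).

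*MEST*, a paternally expressed gene whose product resembles hydrolase enzymes, pointed the other way. Its normalized count ran from 170.1 through a median of 256 to 666 in FF sows and from 191 through 359 to 604 in RES sows. The FF median was exceeded by 12 of 14 RES sows, yet the highest library of all was FF sow 10. For *MEST* the log2 difference came to 0.30 with an SE of 0.19 (adjusted p = 0.283). Without FF sow 10 it was 0.45 (adjusted p = 0.052). *MEST* lies at chr18:18319126-18358655 on the minus strand and overlaps *COPG2* on the other strand, with 619 bases of exon shared. The authors' counting command sets no strand, so reads of the shared stretch cannot be assigned to one of the genes by strand. *COPG2*, a coat protein gene of vesicle transport, had 1274 ± 193 normalized counts in FF sows against 1227 ± 155 in RES sows, a log2 fold change of -0.05 ± 0.08 (adjusted p = 0.714).

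*SNRPN*, which encodes a protein of the Sm family in the particles that splice RNA, was the least variable member. Its normalized count ran from 247 through a median of 295 to 381 in FF sows and from 222 through 268 to 336 in RES sows. Below the lowest FF sow lay 5 RES sows, of which RES sow 5 had 222 and the others, at 243.0 to 246.5, were close to it. The means were 298 ± 33.9 (SD, n = 13) and 269.6 ± 30.1 (n = 14). *SNRPN* had a log2 difference of -0.14 with an SE of 0.07, for which p was 0.047 before adjustment and 0.161 after it. RefSeq places *SNRPN* on an unplaced scaffold, where it shares 457 bases of exon with *SNURF* on the same strand, so the counts may hold both. Of 7 tested proteins of the same particles or of their assembly, 3 were higher in RES sows, beside 8.29% of all tested genes that were higher, and 0 were lower. *SNRPD1* rose from 1908 ± 503 to 3224 ± 888 normalized counts, a log2 fold change of 0.76 ± 0.15 (adjusted p = 0.0019). *SNRPE* rose by 0.56 ± 0.16 (adjusted p = 0.018) and *SNRPF* by 0.67 ± 0.15 (adjusted p = 0.0037) on the log2 scale. *SNRPD2*, at 379 ± 76.0 and 453 ± 113 normalized counts, did not pass the test (adjusted p = 0.144).

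*GRB10* encodes an adaptor that binds the insulin and IGF1 receptors and dampens their signal. Its normalized count ran from 43.2 through a median of 62.3 to 77.2 in FF sows and from 47.0 through 64.0 to 87.4 in RES sows. Its log2 difference of 0.07 had an SE of 0.10 (adjusted p = 0.704), and 2 SE on each side span -0.14 to 0.28. Of the receptors and partner proteins of *GRB10*, 2 of 10 tested were lower in RES sows, beside 5.85% of all tested genes that were lower, and 0 were higher. *IRS1*, a docking protein of the insulin receptor, fell from 446 ± 128 to 316 ± 91.4 normalized counts, a log2 fold change of -0.49 ± 0.15 (adjusted p = 0.027). *PIK3R1*, the regulatory subunit of PI3-kinase, fell from 1607 ± 501 to 1002 ± 376, a log2 fold change of -0.67 ± 0.18 (adjusted p = 0.015). *GRB14*, the close relative of *GRB10*, was far more abundant, with 34947 ± 12272 normalized counts in FF sows and 25972 ± 6725 in RES sows. Its log2 fold change was -0.42 ± 0.16 (adjusted p = 0.077). The receptors *IGF1R* (log2 fold change -0.21 ± 0.13, adjusted p = 0.275) and *INSR* (-0.19 ± 0.12, adjusted p = 0.280) did not pass the test.

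*PLAGL1*, a zinc finger transcription factor that restrains cell division, was the lowest member tested. Its normalized count ran from 16.6 through a median of 32.8 to 50.1 in FF sows and from 21.0 through 28.1 to 34.8 in RES sows. For *PLAGL1* the log2 difference was -0.21 with an SE of 0.14 (adjusted p = 0.335). The RES sows were also closer together, with a coefficient of variation of 17.0% against 28.8% in FF sows, a difference that was not tested. *NDN* (necdin), a growth-restraining protein of the MAGE family encoded by a single exon, had 387 ± 92.0 normalized counts in FF sows and 369 ± 109 in RES sows. *NDN* had a log2 difference of -0.06 with an SE of 0.15 (adjusted p = 0.820), and there were 7 RES sows on each side of the FF median of 373.

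The second question was whether the differences held within the quality groups. In the upper group, 3 of the 7 members were called, beside 17.8% of all tested genes. *PEG10* fell from 3323 ± 2636 (SD, n = 7) to 987 ± 489 normalized counts (n = 7), or -1.74 ± 0.43 on the log2 scale (fit and SE by edgeR, adjusted p = 0.015). *SGCE* fell from 1027 ± 211 to 719 ± 114, a log2 fold change of -0.50 ± 0.13 (adjusted p = 0.020). *MEST* rose from 271 ± 91.8 to 436 ± 104, a log2 fold change of 0.69 ± 0.21 (adjusted p = 0.031). Leaving out each of the 14 libraries of the upper group in turn kept *PEG10* and *SGCE* past the threshold each time, with *PEG10* between -1.95 and -1.35, the latter without FF sow 6. *MEST* passed it in 7 of these 14 runs, and over all 14 its value was 0.60 to 0.86. With FF sow 10 placed in the upper group, as the row numbered FF sow 9 would have it, 1 of the 7 members was called there, beside 9.07% of all tested genes: *PEG10* at -1.57 ± 0.48 (adjusted p = 0.048), while *SGCE* had -0.41 ± 0.17 (adjusted p = 0.124) and *MEST* 0.46 ± 0.26 (adjusted p = 0.268).

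In the lower group 0 of 7 members were called, beside 0.00878% of all tested genes, a single gene. *PEG10* had 1384 ± 711 normalized counts in 6 FF sows and 1594 ± 512 in 7 RES sows, or 0.20 ± 0.30 on the log2 scale (adjusted p = 0.839). *SGCE* had a value of 0.11 ± 0.19 and *MEST* one of -0.15 ± 0.26, opposite in sign to the upper group. Without FF sow 10 these became 0.02 for *PEG10*, -0.0037 for *SGCE* and 0.15 for *MEST*, so the signs of *SGCE* and *MEST* in the lower group rest on that library. The difference between the groups was tested as an interaction in a single fit over all 27 libraries. It had an unadjusted p of 0.0016 for *PEG10*, 0.016 for *SGCE* and 0.021 for *MEST*, where 12.3% of all tested genes had one under 0.05. After adjustment over all genes these were 0.182, 0.327 and 0.353, and 0 of 11384 genes passed. With FF sow 10 in the upper group, the unadjusted interaction p was 0.014 for *PEG10*, 0.113 for *SGCE* and 0.418 for *MEST*, where 4.58% of all tested genes had one under 0.05 and 0 passed after adjustment. The part of read quality in these values was not tested.

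**Figure D2:**
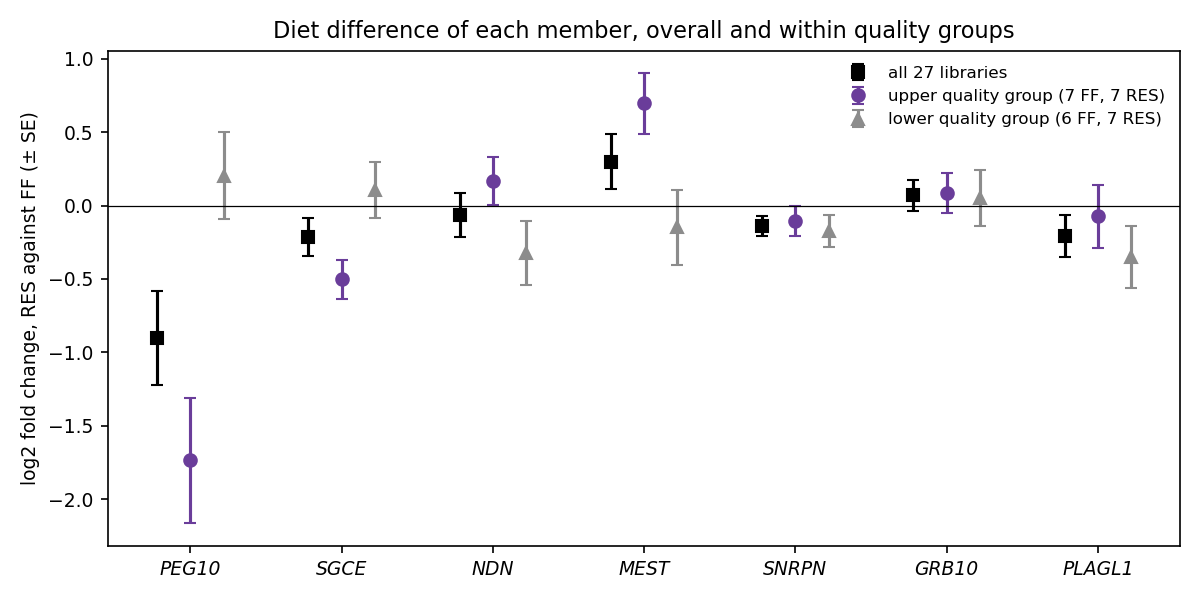
Log2 fold change of RES against FF with its SE for the 7 tested members, over all 27 libraries (squares), in the upper quality group (circles) and in the lower one (triangles). *PEG10* stands at -1.74 in the upper group and 0.20 in the lower, whereas *SNRPN*, *GRB10* and *PLAGL1* keep their sign in both.

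The third question was whether the members varied together from sow to sow. Pearson's r of log2(normalized count + 1) was computed for the 21 pairs of tested members within each diet, 42 pairs in all. After adjustment over the 42, 1 pair passed in FF sows and 1 in RES sows, and it was *PEG10* with *SGCE* in both. In the 13 FF sows r was 0.86 (permutation p adjusted over 42 pairs = 0.0025), with Spearman's rho 0.77 (adjusted permutation p = 0.067). In the 14 RES sows r was 0.85 (adjusted permutation p = 0.0025), with rho 0.78 (adjusted permutation p = 0.0596). FF sows 6 and 10 lay farthest from the *PEG10* median, and r was 0.74 once they were left out. In RES sows these were sows 9 and 12, and r was then 0.84. Within the quality groups r was 0.75 (exact permutation p = 0.055, n = 7) and 0.93 (exact permutation p = 0.013, n = 6) in FF sows. In RES sows it was 0.91 in both groups (exact permutation p = 0.0097 and 0.0050, n = 7 each). All tests were two-sided.

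*PEG10* varied far more than *SGCE* while doing so. The highest FF library had 16.1 times the *PEG10* count of the lowest, and for *SGCE* this ratio was 2.54. The lowest was FF sow 10 for both genes, and without it the ratios were 8.34 and 1.77. Per unit of log2 *PEG10*, log2 *SGCE* rose by 0.30 in FF sows and by 0.43 in RES sows. The ratio of the *PEG10* to the *SGCE* count ran from 0.984 through a median of 1.90 to 6.34 in FF sows and from 0.913 through 1.62 to 2.17 in RES sows.

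**Figure D3:**
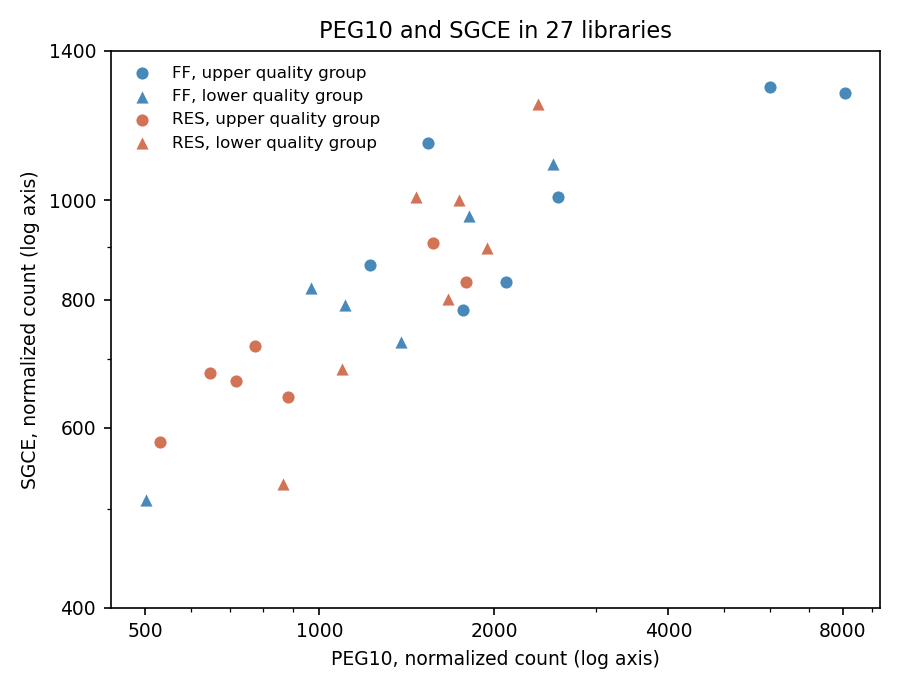
Normalized counts of *PEG10* (x, log axis) and *SGCE* (y, log axis) in each of 27 libraries, colored by diet and shaped by quality group. Points of both diets rise along a common band (r = 0.86 in FF and 0.85 in RES sows), with FF sows 6 and 14 at its upper end and FF sow 10 at its lower end.

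No other pair passed after adjustment. With an unadjusted permutation p under 0.05 there were 4 pairs in FF and 3 in RES sows, counting *PEG10* with *SGCE*. In FF sows, *SGCE* had r = -0.67 with *PLAGL1* and -0.62 with *MEST*, and *MEST* had 0.58 with *PLAGL1*. These 3 rested on few libraries, since without the 2 farthest sows r was -0.32, -0.26 and 0.12. In RES sows, *MEST* had r = 0.65 with *NDN*, and 0.50 without the 2 farthest sows. *SGCE* had r = -0.60 with *GRB10*, and -0.69 without the 2 farthest sows. The pair *MEST* and *NDN* had r = -0.47 in FF sows, opposite in sign to RES sows, and the difference was not tested. Over all pairs the median r was -0.18 in FF and 0.02 in RES sows, so the members did not move as 1 group.

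**Figure D4:**
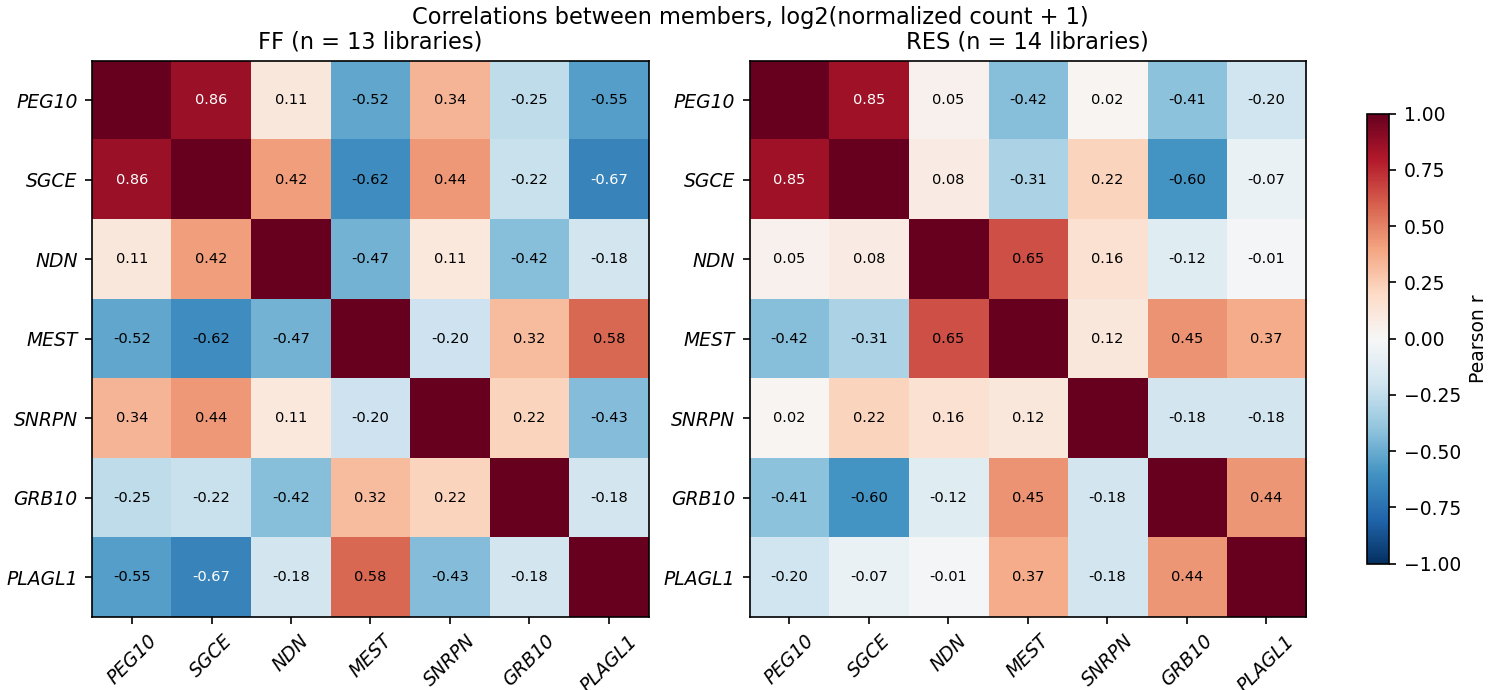
Pearson's r of log2(normalized count + 1) between the 7 tested members in 13 FF (left) and 14 RES libraries (right), from -1 (blue) to 1 (red). *PEG10* and *SGCE* stand out in both diets at 0.86 and 0.85, while the other pairs range from -0.67 to 0.65.

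The neighbourhood of *PEG10* and *SGCE* was then described, a choice made after their values were seen, so no test was run on it. A window of 1 Mb on each side of the *PEG10* start touches 16 protein-coding genes, of which 14 were tested. Apart from *PEG10* and *SGCE*, 11 of 12 had a log2 fold change below 0, with a median of -0.42, while 52.7% of all tested genes were below 0. Among them 2 of 12 were called, *TFPI2* and *CASD1*, both lower and just inside the threshold, beside 14.1% of all tested genes called and 5.85% called lower. Each lost its call in 18 of the 27 fits that left out 1 library. *TFPI2* lost it also with RIN as covariate, by either row for FF sow 10, with no count filter, with all identifiers and without RES sows 3 and 5, and *CASD1* under the last 3 of these, with the replicate block, with quality group as covariate and with RIN as covariate once FF sow 10 was given the RIN of the adjacent row. *TFPI2*, an inhibitor of proteases that is imprinted in the mouse placenta, had 1936 ± 583 normalized counts in FF sows against 1265 ± 682 in RES sows, or -0.61 ± 0.21 on the log2 scale (adjusted p = 0.049). *CASD1*, an enzyme that acetylates sialic acids, had 814 ± 234 and 617 ± 138, a log2 fold change of -0.39 ± 0.14 (adjusted p = 0.049). *PON1*, an esterase known from serum, had a value of -0.60 ± 0.24 (adjusted p = 0.090), and *BET1*, a vesicle transport gene, one of 0.02 ± 0.10 (adjusted p = 0.905).

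Several of these genes followed *PEG10* from sow to sow within a diet. *PPP1R9A* (neurabin, a protein that binds actin and a phosphatase), whose start lies 161 kb from that of *PEG10*, had r = 0.95 with *PEG10* in FF sows (rho 0.88, n = 13) and 0.85 in RES sows (rho 0.85, n = 14). For *PON1*, at 501 kb, r was 0.90 (rho 0.91) and 0.74 (rho 0.77). For *CASD1*, at 198 kb on the other side, r was 0.85 (rho 0.84) and 0.71 (rho 0.79). Without the 2 sows farthest in *PEG10* these became 0.93 and 0.86 for *PPP1R9A*, 0.87 and 0.78 for *PON1*, and 0.78 and 0.73 for *CASD1*. Within the 4 sets of sows given by diet and quality group they ran from 0.82 to 0.96, from 0.83 to 0.97 and from 0.69 to 0.95. *COL1A2*, a collagen gene that lies nearer to *PEG10* than *PON1*, had r = -0.37 in FF and 0.32 in RES sows, and *BET1* had 0.40 and 0.17. At r of 0.7 or above with *PEG10* there were 5 of 13 neighbours in FF sows (38.5%) and 6 of 13 in RES sows (46.2%), beside 5.88% and 3.51% of all tested genes. Both counts include *SGCE*, whose r was known before the window was chosen. *DYNC1I1* reached 0.7 in FF sows alone (0.71, against -0.09 in RES sows). *TFPI2* (0.72, against 0.41 in FF sows) and *PON2* (0.73, against 0.64) did so in RES sows alone. The points share their libraries and depth.

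**Figure D5:**
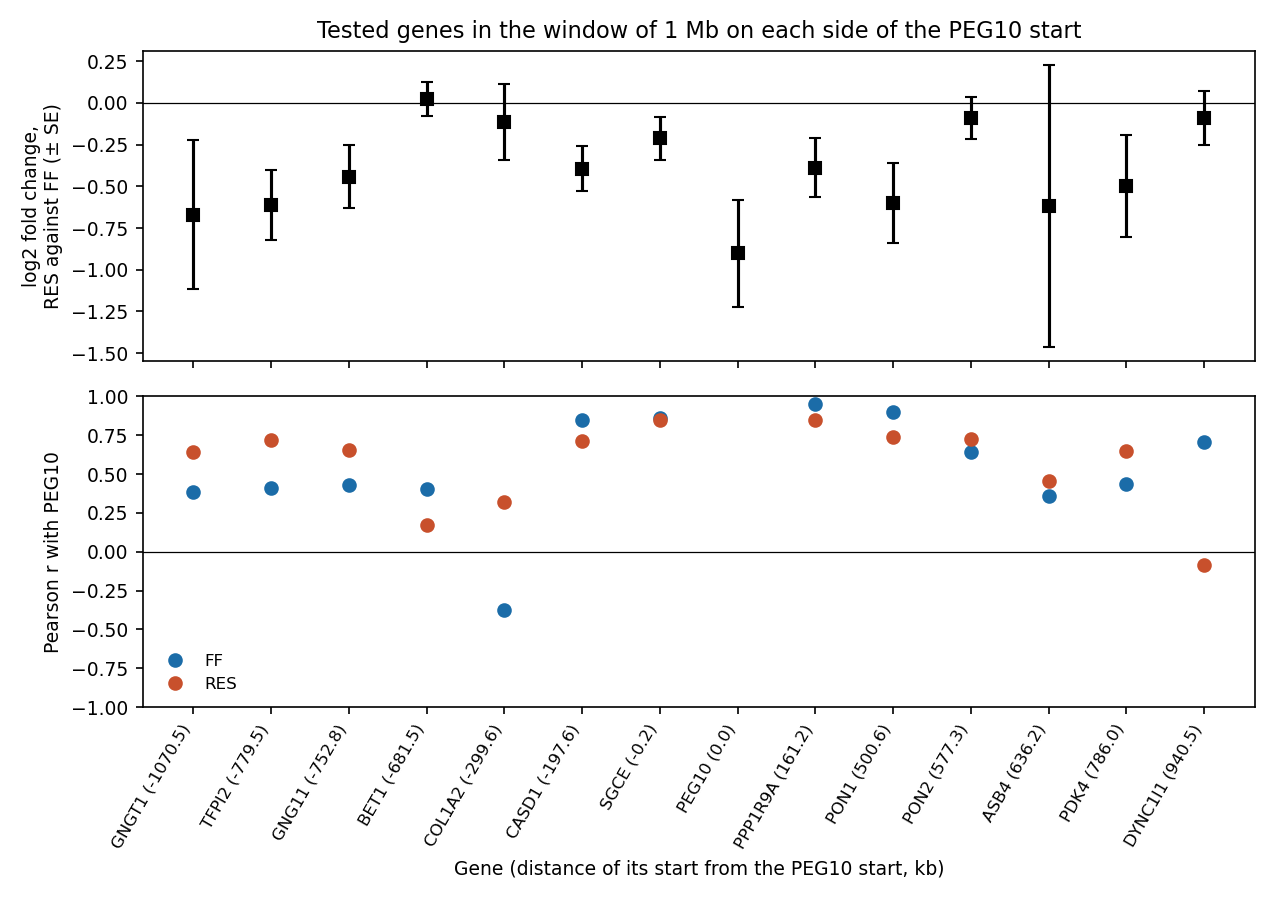
For the 14 tested genes in the window of 1 Mb on each side of the *PEG10* start, ordered by the distance of their starts (kb, in brackets), the top panel gives the log2 fold change of RES against FF with its SE and the bottom panel Pearson's r with *PEG10* within each diet. *BET1* is the exception above 0 in the top panel, and *CASD1*, *SGCE*, *PPP1R9A* and *PON1* lie at 0.71 or higher in both diets.

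Strong likeness to *PEG10* was not limited to its neighbours. Among 9519 genes with a mean normalized count of at least 20, with diet means subtracted over 27 libraries, the most like were *LGR4* (r = 0.95), a receptor for R-spondins, *RABGAP1* (0.95) and *MXI1* (0.92), an antagonist of MYC. *SGCE* came 34th, with r = 0.84. *LGR4* was also among the genes most like *SGCE* (0.91), with *SERINC1* (0.91) and *RALGPS2* (0.90). The genes most like *MEST* were *HEG1* (0.82), *NAV2* (0.81) and *ACSBG1* (0.80), and those most like *NDN* were *TMEM199* (0.80), *AASDHPPT* (0.79) and *TMEM41B* (0.78). For *GRB10* they were *CASC3* (0.73), *FZR1* (0.71) and *GORASP2* (0.71), for *PLAGL1* *FRMD4A* (0.66), *SEPTIN9* (0.64) and *TSC22D2* (0.63), and for *SNRPN* *SERPINE3* (0.61), *ATF3* (0.58) and *ATE1* (0.56). A highest r among that many genes is large by selection, and these values are descriptions.

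Other imprinted genes were present in part. Of 44 listed, 35 had an identifier and 17 were tested, 18 were below the filter, and 3 of these had no count in any library. Among the 17 *TFPI2* was the single gene called, lower in RES sows, beside 14.1% of all tested genes called. *CD81*, a tetraspanin, had 109.99 ± 22.5 normalized counts in FF sows against 87.1 ± 17.9 in RES sows, with 13 of 14 RES sows below the FF median and a log2 fold change of -0.33 ± 0.12 (adjusted p = 0.0575). *NAP1L4*, a histone chaperone, was above the FF median in 14 of 14 RES sows, at 200.6 ± 53.9 and 229 ± 32.9 normalized counts (log2 difference 0.20, SE 0.11, adjusted p = 0.229), and it was called without FF sow 10. *KCNQ1*, a potassium channel, was below it in 13 of 14, at 112 ± 35.0 and 83.4 ± 30.6 (log2 difference -0.41, SE 0.18, adjusted p = 0.129). *WT1* had 72.1 ± 21.5 and 95.0 ± 42.9 (log2 fold change 0.41 ± 0.20, adjusted p = 0.158), and 10 of 14 RES sows were above its FF median. *PPP1R9A* had 2228 ± 929 and 1694 ± 492 (log2 fold change -0.39 ± 0.18, adjusted p = 0.137), and *UBE3A*, a ubiquitin ligase, had 1870.0 ± 235 and 1862 ± 247 (adjusted p = 0.988). *IMPACT*, a regulator of the GCN2 kinase, had 899 ± 153 and 957 ± 196 (adjusted p = 0.571). The median log2 fold change of the 17 was -0.02.

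Of 10 factors that keep imprints through cell division, 2 were higher in RES sows and 0 lower, beside 8.29% and 5.85% of all tested genes. *DNMT1*, the maintenance DNA methyltransferase, rose from 1492 ± 689 to 2270 ± 530 normalized counts, a log2 fold change of 0.61 ± 0.18 (adjusted p = 0.024). *CTCF*, an insulator protein, rose from 1369 ± 155 to 1627 ± 193, a log2 fold change of 0.25 ± 0.07 (adjusted p = 0.017). For both, the FF median was exceeded by 13 of 14 RES sows. *SMCHD1* (2300 ± 331 and 2325 ± 310.0 normalized counts, adjusted p = 0.890), *ARID4B* (1713 ± 328 and 1517 ± 286, adjusted p = 0.264) and *ARID4A* (1165 ± 303 and 1007 ± 215, adjusted p = 0.262) did not pass the test, nor did *ZFP57*, the zinc finger protein that binds methylated imprints, at 6.57 ± 3.75 and 4.47 ± 2.47 (adjusted p = 0.321). *UHRF1* did not pass the test either, at 82.4 ± 78.9 and 139 ± 48.5 (log2 fold change 0.77 ± 0.30, adjusted p = 0.086), though 13 of 14 RES sows exceeded its FF median. Cell cycle genes moved with *DNMT1* and *CTCF*, as 12 of 14 tested were higher in RES sows, and their part in the change was not tested.

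Some markers of other cells were also lower in RES sows. Endothelial markers were lower in RES sows for 3 of 7 tested, beside 5.85% of all tested genes, with summed normalized counts of 811 to 1539 in FF and 530 to 1902 in RES sows. For pericyte and smooth muscle markers this was 2 of 8 (2887 to 8308 and 1874 to 8313), for erythroid markers 1 of 2 (36.7 to 1111 and 9.26 to 134), for theca and stroma markers 1 of 13 (15542 to 43855 and 12022 to 41400) and for immune markers 0 of 5 (184 to 611 and 102 to 576). The single oocyte marker tested was not called. No marker with an identifier was at 0 throughout. Granulosa markers summed to 82311 to 131445 in FF and 83723 to 146298 in RES sows, with 1 of 10 higher in RES sows, beside 8.29% of all tested genes, and 0 lower. The part of these cells in the differences of the imprinted genes was not tested.

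The members were also set against a theca and stroma score and a cell cycle score, each the mean of log2(normalized count + 1) over 13 and 14 genes, and by Pearson's r 0 of the 28 correlations passed after adjustment. By Spearman's rho 2 of 28 passed, both in RES sows: *MEST* with the theca and stroma score (rho -0.78, adjusted permutation p = 0.032) and *SGCE* with the cell cycle score (rho -0.76, adjusted permutation p = 0.032). At an unadjusted permutation p under 0.05 there were 2 of 14 in FF and 5 of 14 in RES sows. The strongest was *MEST* with the theca and stroma score in RES sows, at r = -0.72 (permutation p = 0.0039, adjusted 0.109), and the same pair had r = 0.55 in FF sows. With the cell cycle score *MEST* had r = 0.60 in FF sows (permutation p = 0.028, adjusted 0.161) and r = 0.54 in RES sows (permutation p = 0.045, adjusted 0.178). *SGCE* had r = -0.68 with the theca and stroma score in FF sows (permutation p = 0.0091, adjusted 0.128), but 0.48 in RES sows. With the cell cycle score *SGCE* had r = -0.62 in RES sows (permutation p = 0.016, adjusted 0.145). *PEG10* had r = -0.56 with the cell cycle score in RES sows (permutation p = 0.029, adjusted 0.161). *NDN* had r = -0.56 with the theca and stroma score in RES sows (permutation p = 0.037, adjusted 0.174), and -0.14 without the 2 farthest sows.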

How the data were processed

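The deposited files hold raw counts per gene and library, made by the authors. According to the methods and the submitters' processing notes, paired reads of rRNA-depleted, dUTP-marked libraries were aligned to Sscrofa11.1 with HISAT2 2.2.1, uniquely mapped reads were kept with SAMtools 1.16.1, duplicates were removed with UMI-tools 1.1.4, and exons of Ensembl release 110 were counted with featureCounts 1.6.2, whose command in the file headers sets no strand option. Identifiers were matched to symbols with a gene table, and 15623 of 35670 had one.

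RES was compared with FF over 27 libraries by edgeR 4.0.16 (quasi-likelihood test, TMM factors, R 4.3.3) on 11384 named genes with a mean count of at least 5, after 38 small RNA symbols were left out, with Benjamini-Hochberg adjustment and calls at 0.05. The study's methods name DESeq2, which served here as an alternative (1.42.0), as did limma 3.58.1. Printed levels are counts divided by DESeq2 size factors over these genes, called normalized counts. On simulated counts for this comparison (11384 genes) the test recovered 85% of 2-fold and 98% of 4-fold changes, and 5.18% of its calls fell on unchanged genes.

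Correlations used Pearson's r and Spearman's rho (Python 3.11.15, SciPy 1.17.1) on log2 values with a pseudocount of 1, with 100000 permutations, and exact enumeration within quality groups. Positions and sequence come from RefSeq on Sscrofa11.1. The rule for named genes took all members, the called genes of each other list and up to 4 more of it by mean level, and the 3 genes most like each member. The genes of the window around *PEG10*, and *CD81*, *NAP1L4*, *KCNQ1*, *WT1*, *CALCR*, *INSR*, *ZFP57* and *UHRF1*, were named after their values were seen. The members and lists were chosen with earlier results of these data known. *NNAT* was not analysed here.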

Additional observations from a re-analysis of the deposited data

How the results depend on the processing

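The 7 tested members kept their direction under 12 other settings of the fit and under each of the 27 single libraries left out, with the exception below for *GRB10*. The number of members called, 0, became 1 (*PEG10*) with DESeq2 (log2 fold change -0.91, adjusted p = 0.043), voom with sample weights (-0.77, adjusted p = 0.037) and, added after seeing the data, upper-quartile factors (-0.91, adjusted p = 0.0496) and RIN as covariate with FF sow 10 given the RIN of the adjacent row (-0.94, adjusted p = 0.044), and ranged from 0 to 1 when single libraries were left out. Leaving out RES sows 3 and 5 together, also added afterwards, turned *GRB10* to -0.0036 (adjusted p = 0.987). Of the other imprinted genes, 1 was called (*TFPI2*), against 2 with DESeq2, filterByExpr and quality group as covariate, also with FF sow 10 in the upper group (*TFPI2* and *CD81*), 2 without RES sows 3 and 5 (*CD81* and *KCNQ1*), 4 with voom, and 0 with RIN as covariate or all identifiers. With no count filter the 1 called was *CALCR*, which is at the floor, with a mean count of 0.22 and no count in any RES library. With RIN as covariate by the adjacent row the 1 called was *CD81*. This ranged from 0 to 2 over left-out libraries: *TFPI2* lost its call in 18 of 27, of which 15 called none and 3 *CD81* alone. Of all named genes 1610 were called, 3193 with voom, and 1182 (without FF sow 6 or RES sow 1) to 2350 (without RES sow 7) over left-out libraries. In the upper quality group 2 to 3 members were called over left-out libraries, and 1 with FF sow 10 placed there, both chosen after seeing the data. In the lower group, where 0 were, the log2 fold change of *SGCE* ran from -0.0037 (without FF sow 10) to 0.20 and that of *MEST* from -0.26 to 0.15 (without FF sow 10). By Spearman's rho, 0 member pairs passed in either diet instead of 1, and 2 correlations with scores instead of 0 (*MEST* with the theca and stroma score and *SGCE* with the cell cycle score, in RES sows). Over left-out libraries there was 1 pair in FF sows, 1 to 2 pairs in RES sows (2 without RES sow 13), and 0 to 1 correlations with scores. Sow numbers do not pair the diets, since the deviations of same-numbered sows had a median r of 0.01 over 13 pairs and 1 library correlated best with its own number. With sow number as a replicate block *PEG10* had a log2 fold change of -0.56 (adjusted p = 0.260) and 0 members were called. Depth limits *PEG3*, with 61 counts in all, and *DLK1*, with none.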
